A study of Mus musculus with 68 samples.

Results

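POLE4-KO#2, a mouse embryonic stem cell (ESC) line whose labels give the genotype Pole4KO, was compared with the wild-type line WT#1 by total RNA-seq. The members were chosen by library name: 6 libraries, 3 of POLE4-KO#2 and 3 of WT#1, out of 12 in the POLE4 table and 68 samples in the series. The series measured RNA in ESCs carrying mutations that disturb how old histones are passed to the 2 daughter DNA strands, and the POLE4 table tests loss of a subunit of the leading-strand polymerase. All lines derive from E14JU, a male ESC line of strain 129/Ola, and were grown untreated in serum with leukemia inhibitory factor on gelatin, so WT#1 carries the same background and culture as POLE4-KO#2. Each line is 1 clone. POLE4-KO#1 and POLE4-KO#3, with 3 libraries each, are 2 other clones of the same genotype. The knockout lines were made by genome editing, and the edit itself is not given in the sources used here. Because each group is 1 clone sampled 3 times, p-values measure the spread between libraries of a clone, and the genotype cannot be told apart from other differences between the clones.

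POLE4 is a small histone-fold protein that pairs with POLE3 inside DNA polymerase epsilon, the enzyme that copies the leading strand. The pair also binds histones H3 and H4 and helps to place parental histones onto the leading strand behind the fork. Parental histones carry the marks that keep developmental genes and repeats silent, and ESCs in serum normally drift between naive, lineage-primed and rare 2-cell-like states, so genes of all these programs were examined.

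Gene counts per library ran from 21158919 to 24069773 in POLE4-KO#2 and from 19626320 to 25164296 in WT#1. Levels are given as CPM, a gene's reads as a share of its scaled library, and differences as log2 fold changes of POLE4-KO#2 over WT#1 with their standard error (SE). A feature was called changed at an adjusted p under 0.01 and a log2 fold change beyond 0.58 in edgeR's quasi-likelihood test. ESC markers were abundant in both lines: Pou5f1, which encodes the pluripotency factor OCT4, averaged 762 CPM ± 131 (SD, n = 3) in POLE4-KO#2 and 851 ± 51.9 in WT#1. Reads in repeats made up 5.64% ± 0.347 of all counts in POLE4-KO#2 and 3.95% ± 0.319 in WT#1. Transcripts of the mitochondrial genome took 4.9 to 7.23% of gene counts in POLE4-KO#2 and 3.36 to 4.1% in WT#1. The part of these shares in the results below was not tested. Where a gene is given library by library, the POLE4-KO#2 and WT#1 libraries did not overlap unless stated.

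Pole4 itself (chromosome 6, 82618992 to 82705365, minus strand, mm10) was read first, as the targeted gene. Its level was 7.11, 6.43 and 8.35 CPM in the 3 POLE4-KO#2 libraries and 56.2, 61.3 and 60.6 CPM in the WT#1 libraries. The groups did not overlap, and the difference was -3.02 (SE 0.14, adjusted p = 1.87e-09). Transcript was therefore reduced and still detected. Its level in POLE4-KO#2 lay above that of the other POLE4-KO clones, by 1.06 (SE 0.14, adjusted p = 4.9e-05). The remaining polymerase epsilon and histone-fold genes did not pass the test: Pole, the catalytic subunit, differed by 0.21, Pole2 by -0.04, Pole3, the partner of POLE4, by -0.07, and Chrac1, which encodes another POLE3 partner, by -0.40. Hk2, the nearest tested neighbour on its higher-coordinate side, differed by -0.01.

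Of 16790 genes tested, 1905 (11.3%) were called between POLE4-KO#2 and WT#1. Among them 839 (5%) were higher and 1066 (6.35%) were lower. Set against WT#1 in the same fit, POLE4-KO#1 had 625 genes higher (3.72%) and 1317 lower (7.84%), and POLE4-KO#3 had 432 higher (2.57%) and 72 lower (0.429%). These 3 contrasts share the WT#1 libraries, so their values are given side by side below and not compared by overlap. POLE4-KO#2 was also tested directly against the mean of the other clones, weighted equally. In that test 1000 genes (5.96%) were called, 475 higher (2.83%) and 525 lower (3.13%). Differences from the other clones below are from this mean, so POLE4-KO#2 can lie between those clones and still be called.

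**Figure D1:**
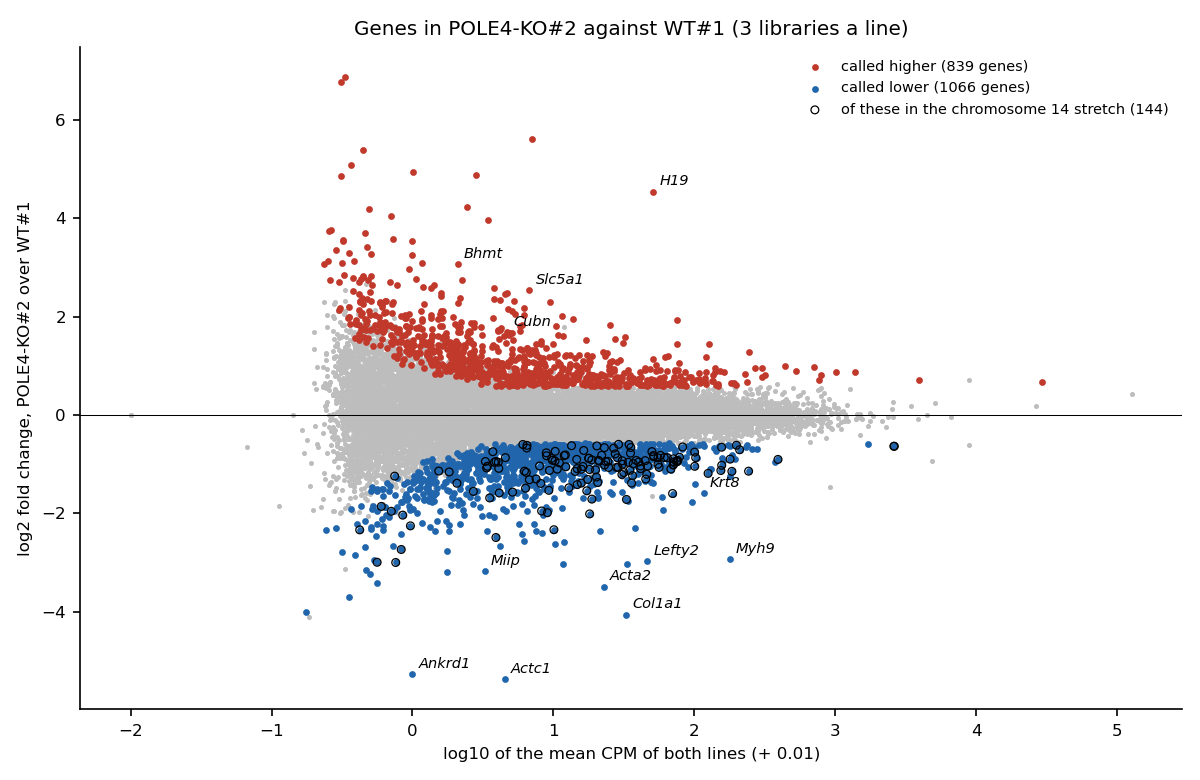
Log2 fold change of POLE4-KO#2 over WT#1 for each tested gene (vertical axis) against log10 of its mean CPM in both lines (horizontal axis). Red points are the 839 genes called higher, blue points the 1066 called lower, gray points were not called, and black rings mark the 144 lower genes in a chromosome 14 stretch. Among the labelled genes H19 lies highest, and Actc1, Ankrd1, Col1a1 and Myh9 lie far below 0.

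Genes of the actin cytoskeleton, many of them targets of serum response factor (SRF), were the list with the lowest median in POLE4-KO#2. Of 29 members tested 22 were lower and none was higher, with a median of -0.944, beside 6.35% of all genes lower and a median of all genes of about 0. SRF is a transcription factor that binds the CArG box, a short A/T-rich sequence between a CC and a GG, and drives actin and contractile genes. Myh9, the heavy chain of non-muscle myosin IIA, measured 35.4, 43.3 and 44.6 CPM in POLE4-KO#2 and 325, 308 and 312 CPM in WT#1. The groups lay far apart, with a difference of -2.94 (SE 0.09, adjusted p = 1.3e-11). Acta2, smooth muscle actin, measured 2.22, 5.2 and 3.61 CPM against 36.5, 50.9 and 37.9 CPM in WT#1. Every POLE4-KO#2 library again lay below every WT#1 library (-3.49). Ankrd1, an SRF and YAP target, was at 0.0967, 0 and 0.0435 CPM against 1.57, 1.94 and 2.27 CPM (-5.26, SE 0.68, adjusted p = 3.2e-05).

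The smaller changes in this list ran through the same machinery. Actg2 (enteric smooth muscle actin) fell by 2.21 on the log2 scale, the calponins Cnn1 and Cnn2 by 1.85 and 1.06, Tagln (transgelin, which crosslinks actin) by 1.66, Myl9 (a myosin light chain) by 1.05, Vcl (vinculin, at focal adhesions) by 0.62 and Actg1 (cytoplasmic gamma-actin) by 0.59. Srf itself was at 36 to 41.8 CPM against 53.4 to 60.7 CPM in WT#1, a difference of -0.55 that missed the fold limit. Actb, the other cytoplasmic actin, differed by 0.01, and Myh10, the heavy chain of non-muscle myosin IIB, by -0.10. Both overlapped between the lines. Sarcomeric actins moved with the list. Actc1, cardiac actin, measured 0.29, 0.169 and 0.174 CPM against 6.91, 10.96 and 8.49 CPM (-5.37), and Acta1, skeletal actin, 1.5, 3.34 and 2.7 CPM against 19.8, 24.9 and 17.9 CPM (-3.04). Of 16 cardiac and muscle genes tested, 6 were lower, 3 of them shared with the actin list, and 1, the T-box factor Tbx20, was higher by 1.26.

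Because SRF binds a defined sequence, the promoters of these genes were searched for the CArG box on both strands over the 250 bases before each start in the RefSeq promoter table (GRCm38.p6). The box was found at 1.62% of the 27025 genes in the table and at 151 of 11285 genes tested (1.34%). Genes lower in POLE4-KO#2 held it in 18 of 768 cases (2.34%), and genes higher in 3 of 501 (0.599%). In the actin and SRF list, which was drawn up partly from known SRF targets, 6 of 22 genes with an entry held it, namely Actg1, Cnn2, Myl9, Vcl and the uncalled Filip1l and Srf. These were 4 of 17 lower members with an entry (23.5%) and 2 of 5 members not called (40%). Ankrd1, Acta2 and Myh9 were not among the genes found to hold it. The stretches around the box in the 4 lower members, and in the sarcomeric actins Actc1 and Acta1, are shown read 5′ to 3′ on the gene's strand with the box in capitals. They lie at chr10:79988519-79988578 (plus strand) for Cnn2, chr2:156775278-156775337 (plus) for Myl9, chr14:20929148-20929205 (plus) for Vcl, chr11:120348551-120348610 (minus) for Actg1, chr2:114052888-114052947 (minus) for Actc1 and chr8:123894814-123894873 (minus) for Acta1. A match is a description of the letters, not evidence of binding here.
Cnn2: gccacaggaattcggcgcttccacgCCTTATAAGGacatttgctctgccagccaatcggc
Myl9: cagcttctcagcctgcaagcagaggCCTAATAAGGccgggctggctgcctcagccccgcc
Vcl: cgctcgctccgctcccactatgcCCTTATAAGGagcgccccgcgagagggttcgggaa
Actg1: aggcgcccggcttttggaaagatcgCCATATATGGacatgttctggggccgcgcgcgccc
Actc1: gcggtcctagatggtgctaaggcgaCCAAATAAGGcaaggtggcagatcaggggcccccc
Acta1: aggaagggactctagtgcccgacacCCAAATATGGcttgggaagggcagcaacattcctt

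The other clones gave different values for the actin list. The list's median over WT#1 was -1.44 in POLE4-KO#1 and 0.0738 in POLE4-KO#3. Myh9 differed from the other clones by -2.80, and its own contrasts over WT#1 were -0.31 in POLE4-KO#1 and 0.05 in POLE4-KO#3. Acta2 (-1.30) and S100a6, a calcium-binding protein (-0.89), were the other 2 list members called lower than the mean of the other clones. For Acta2, POLE4-KO#2 lay between those clones. WT#1 itself stood high for these genes: in the clone experiment, a separate table scaled on its own, its summed libraries of the sequencing batch RNA_AUG lay above all 6 other wild-type clones of that batch for 16 of the 29. The same was so for 19.9% of all genes tested and 29.6% of all genes below 0 in POLE4-KO#2. Values from the clone experiment below come from the same batch, and the clones outside it, 1 wild-type and 3 MCM2-2A, were not used here. The part of this in the difference was not tested.

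Part of the matrix list was also low. Of 21 fibroblast and matrix genes tested 8 were lower and none higher, with a median of -0.779, beside 6.35% of all genes lower. Summed over the list, the libraries overlapped, at 1013 to 1058 CPM in POLE4-KO#2 and 982 to 1108 CPM in WT#1. In batch RNA_AUG, WT#1 lay above all 6 other wild-type clones for 10 of the 21, beside 19.9% of all genes tested. Col1a1, a chain of type I collagen, was at 3.77, 3.13 and 4.26 CPM against 64, 59.3 and 62.6 CPM in WT#1, without overlap (-4.06). Lox, which crosslinks collagen, was at 0.0484, 0.508 and 0.435 CPM against 2.65, 2.58 and 4.24 CPM (-3.19). Col1a2 (-2.22), Col3a1 (-2.03) and the fibrillar collagen Col5a1 (-1.19) were lower as well. The same genes mark fibroblasts, and in bulk RNA fewer cells of a type and less RNA per cell cannot be told apart. Postn, a further fibroblast marker, was near 0 in both lines, with 3 counts over the 3 POLE4-KO#2 libraries and 15 over the WT#1 libraries. Thy1 averaged 4.58 CPM in POLE4-KO#2 and 7.84 CPM in WT#1.

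**Figure D2:**
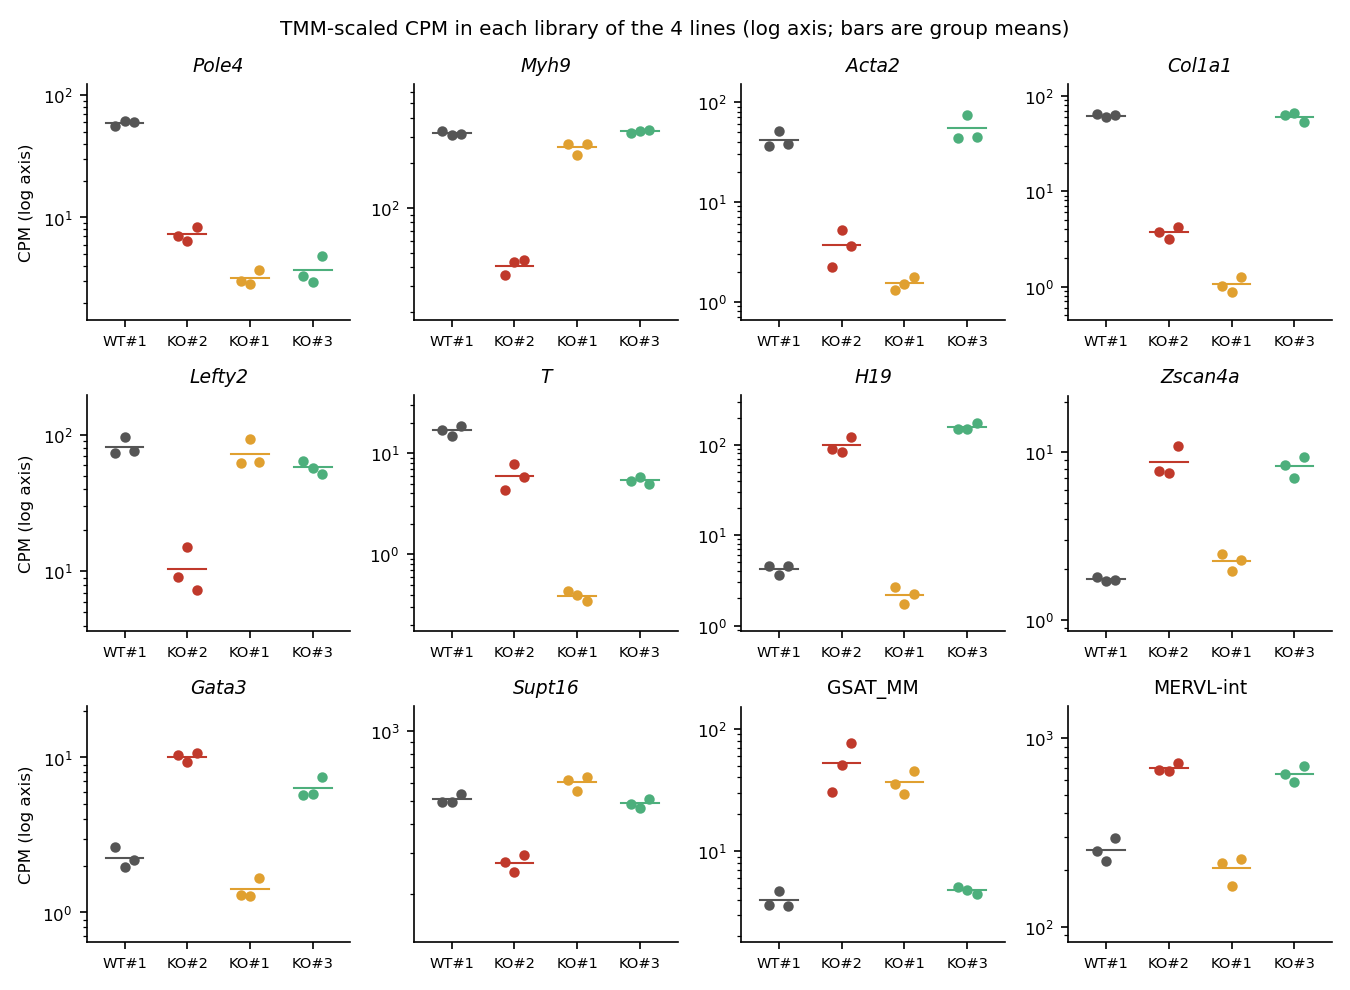
CPM on a log axis in each library of the 4 lines for 10 genes and 2 repeat subfamilies, with points for libraries and bars for group means. POLE4-KO#2 stands apart from every other line for Myh9, Lefty2, Supt16 and Gata3, lies near POLE4-KO#3 for Zscan4a and MERVL-int, and lies between the other clones for Acta2, Col1a1 and H19.

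Primitive streak genes, switched on when the embryo forms mesoderm and used as markers of primed ESCs, were lower in POLE4-KO#2. Of 24 tested 9 were lower and 1 was higher, with a median of -0.386, beside 6.35% of all genes lower and 5% higher. Lefty2, a secreted inhibitor and target of Nodal signalling, was at 9.09, 15 and 7.26 CPM against 73.2, 97.3 and 76 CPM in WT#1 (-2.97). Its neighbour in the pathway, Lefty1, differed by -2.31. For both genes the 2 other clones were much nearer WT#1, and POLE4-KO#2 was lower than those clones by 2.63 for Lefty2 and 2.20 for Lefty1. The T-box gene T (Brachyury) was at 4.35, 7.74 and 5.83 CPM against 16.9, 14.8 and 18.5 CPM (-1.48). T was lower still in POLE4-KO#1 (-5.41 over WT#1), and POLE4-KO#2 was above the other clones by 2.05.

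Fgf8, a growth factor of the streak, was at 0.484, 0.508 and 0.348 CPM against 3.23, 2.43 and 3.52 CPM (-2.76). Sp5, a direct WNT target, was at 3.1, 2.5 and 2.96 CPM against 22.8, 13.5 and 16.7 CPM (-2.63). Cdx1 (-1.93), the homeobox gene Mixl1 (-1.48), the ligand Wnt3 (-1.23) and Axin2, a feedback inhibitor of WNT (-0.99), followed. The WNT and Hedgehog list held 6 lower genes of 27, beside 6.35% of all genes. It added to these Porcn, which acylates WNT ligands (-1.11), and Smo, the Hedgehog signal transducer (-0.80). Among 27 genes of FGF-ERK feedback 4 were lower, beside the same share of all genes. They were Fgf8, the phosphatases Dusp4 (-1.35) and Dusp5 (-1.26), and Phlda1 (-1.09). WT#1 lay above all 6 other wild-type clones of that batch for 14 of the 24 streak genes, beside 19.9% of all genes tested.

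Genes of formative and lineage-primed cells pointed the same way, with 8 lower and 1 higher of 25, beside 6.35% and 5% of all genes. The list's median over WT#1 was -0.421 in POLE4-KO#2, -1.32 in POLE4-KO#1 and -0.18 in POLE4-KO#3. In batch RNA_AUG, WT#1 lay above all 6 other wild-type clones for 9 of the 25, beside 19.9% of all genes tested. The list's sum there was 1860 CPM in WT#1 and 1060 to 1730 CPM in those clones. Krt8, an epithelial keratin, was at 52.3, 63.3 and 57.6 CPM against 168, 177 and 179 CPM (-1.60), and its partner Krt18 differed by -1.12. Dnmt3a, a de novo DNA methyltransferase, was at 125, 114 and 92.3 CPM against 209, 210 and 191 CPM (-0.88), and Nes, an intermediate filament of neural progenitors, differed by -1.23. Car12, a carbonic anhydrase, was higher (1.06). In contrast no naive pluripotency gene was called by edgeR among 28, with 9 at an unadjusted p under 0.05 and 0 called by DESeq2. Nanog was at 330, 265 and 364 CPM against 274, 206 and 289 CPM, and Klf4 was at 130, 112 and 124 CPM against 138, 94.3 and 122 CPM. Both overlapped between the lines. Tbx3 was above the other clones by 0.79 (adjusted p = 0.0039) and differed from WT#1 by 0.66 without passing the test.

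A block of genes on chromosome 14 fell together. In the stretch from 47 to 70 Mb (mm10), 211 of 221 tested genes were below 0, with a median of -0.898, a ratio of 0.537, and quartiles of -1.13 and -0.58. Of these 144 were called lower and none higher, and for 176 all POLE4-KO#2 libraries lay below all WT#1 libraries, as they did for 20.8% of all genes tested. On the same chromosome, the 205 genes before 47 Mb had a median of 0.00304 and the 136 genes after 70 Mb a median of -0.0416. The stretch gave 144 of the 1066 genes lower than in WT#1 (13.5%). Its bounds were set with earlier results of these data known.

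Neither other POLE4-KO clone showed this pattern, but wild-type clones did. Over WT#1 the same 221 genes had a median of 0.101 in POLE4-KO#1 and -0.000406 in POLE4-KO#3. Against those clones POLE4-KO#2 had a median of -0.947 in the stretch, with 157 genes lower, which are 29.9% of the 525 genes lower in that test. In batch RNA_AUG of the clone experiment, however, 4 of the 6 other wild-type clones were also low in the stretch relative to WT#1, with medians of -0.78, -0.774, -0.745 and -0.742 (0.5 CPM added), and the remaining clones had 0.0525 and 0.121. Their medians over the rest of chromosome 14 lay between -0.0652 and 0.0127. Supt16, a subunit of the histone chaperone FACT, was at 275, 250 and 294 CPM against 496, 499 and 536 CPM in WT#1 (-0.90), and in the other wild-type clones of the batch it ranged from 211 to 510 CPM with WT#1 at 415. Ipo4, an importin that carries H3-H4, was at 50.5, 42.6 and 48 CPM against 105, 85.4 and 93.7 CPM (-1.01). Wdhd1, the replication fork protein also known as CTF4 or AND-1, was at 52.6, 47.7 and 52.6 CPM against 94.3, 92.5 and 108 CPM (-0.95). Mphosph8, a reader of H3K9 methylation in the HUSH complex, differed by -0.82. None of these groups overlapped.

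**Figure D3:**
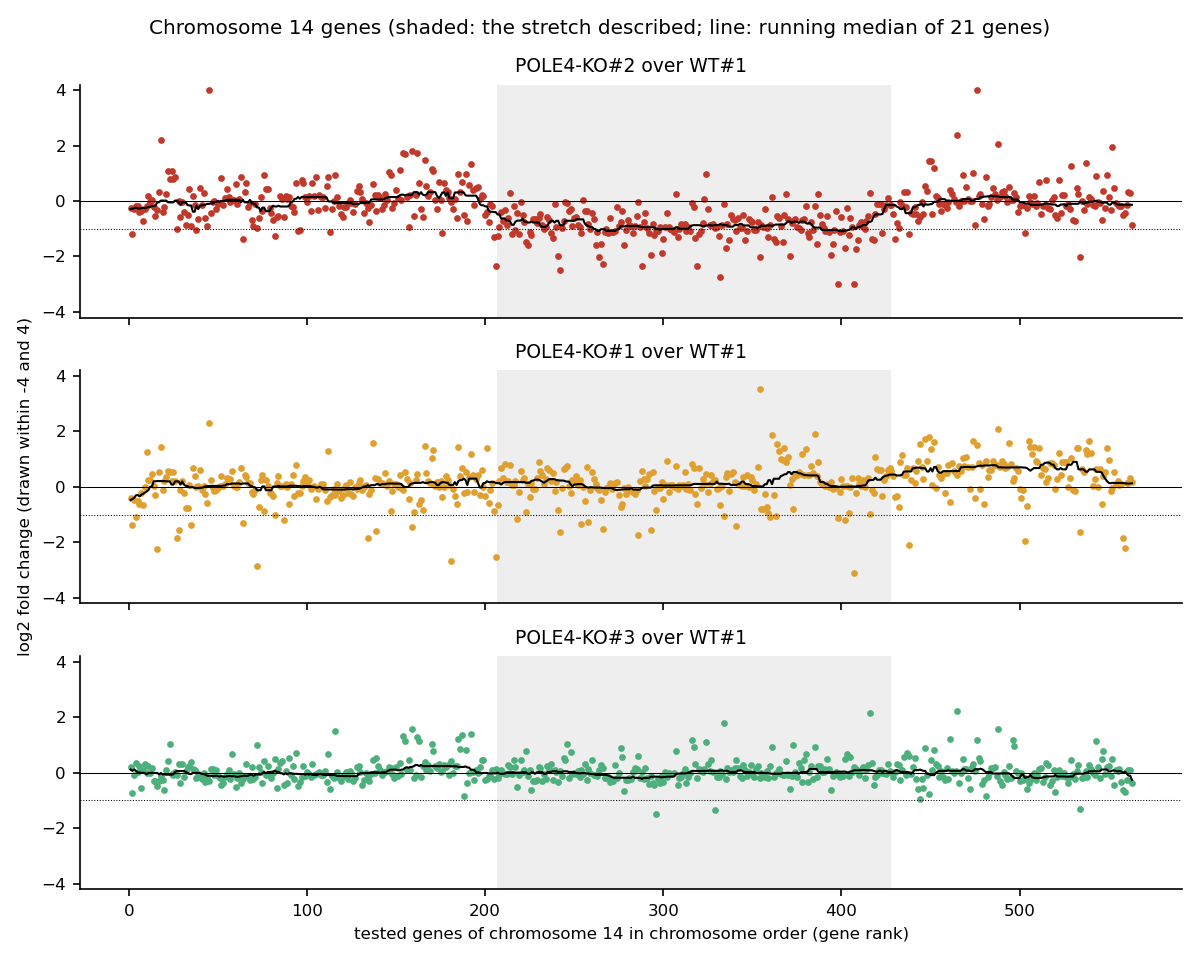
Log2 fold change over WT#1 (vertical axis, drawn within -4 and 4) of the tested chromosome 14 genes in chromosome order (horizontal axis, gene rank), for POLE4-KO#2, POLE4-KO#1 and POLE4-KO#3, with a running median as a black line. Inside the shaded stretch the median of POLE4-KO#2 is -0.898, and those of the other POLE4-KO clones are 0.101 and -0.000406.

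These 4 genes lie in the stretch and are the lower members of several chromatin lists. Of 21 H3-H4 chaperone genes 2 were lower, Ipo4 and Supt16, and of 30 other replication factors 1, Wdhd1, beside 6.35% of all genes. Of 26 heterochromatin factors 2 were lower (Dnmt3a, elsewhere in the genome, and Mphosph8) and 1 was higher, the methylcytosine dioxygenase Tet1 (0.70). Other genes of the stretch included Mmp14, a membrane metalloproteinase that cleaves matrix, at 6.62, 8.55 and 6.31 CPM against 29.8, 29.9 and 27.1 CPM (-2.01), Nefl, neurofilament light chain (-1.38), Fdft1, squalene synthase (-1.04), and the mitophagy receptor Bnip3l (-0.87). Sall2, a zinc finger factor in the stretch, was lower by 1.15, and in POLE4-KO#1 it was lower by 1.34. The DNA copy number of this stretch was not analysed here. Without its genes, 826 genes were higher and 911 lower, a setting chosen after seeing the data.

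Genes of the 2-cell-like state, a rare ESC state resembling the 2-cell embryo, rose in POLE4-KO#2. Of 36 tested 31 were higher and none lower, with a median of 1.78, beside 5% of all genes. Zscan4a, of the Zscan4 cluster that marks these cells, was at 7.79, 7.49 and 10.9 CPM against 1.81, 1.71 and 1.74 CPM in WT#1 (2.32). Zscan4c was at 8.08, 7.49 and 10.9 CPM against 2.5, 2.24 and 3.38 CPM (1.72). Duxf3, a copy of the Dux gene that activates this program, was low but higher than in WT#1, at 0.87, 0.465 and 0.566 CPM against 0.049, 0.114 and 0 CPM (3.30). Tcstv3 was at 1.26, 0.719 and 0.783 CPM against 0.098, 0.0379 and 0 CPM, and Tmem92 (2.60), Usp17le (2.36) and Zfp352 (2.06), all activated in 2-cell embryos, rose too. Zscan4, Usp17l, Tdpoz and Tcstv genes are near-identical copies that can share reads, so the value of a single copy is uncertain.

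Summed over the list, 2-cell-like genes reached 164.7 to 191.7 CPM in POLE4-KO#2 and 66.2 to 76.1 CPM in WT#1. The sums were 69.5 to 79.1 CPM in POLE4-KO#1, where the list's median over WT#1 was -0.294, and 183 to 225 CPM in POLE4-KO#3, where it was 2.23. Against the other clones together, 19 members were higher in POLE4-KO#2, with a median of 0.996. The level of these genes also varied between experiments of the control line. In batch RNA_AUG of the clone experiment, scaled as a separate table, the sum was 177 CPM in WT#1 and between 66.8 and 200 CPM in the 6 other wild-type clones of that batch. WT#1 thus gave a value near that of POLE4-KO#2 in that table and a lower one here. The part of this in the difference between the lines was not tested.

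**Figure D4:**
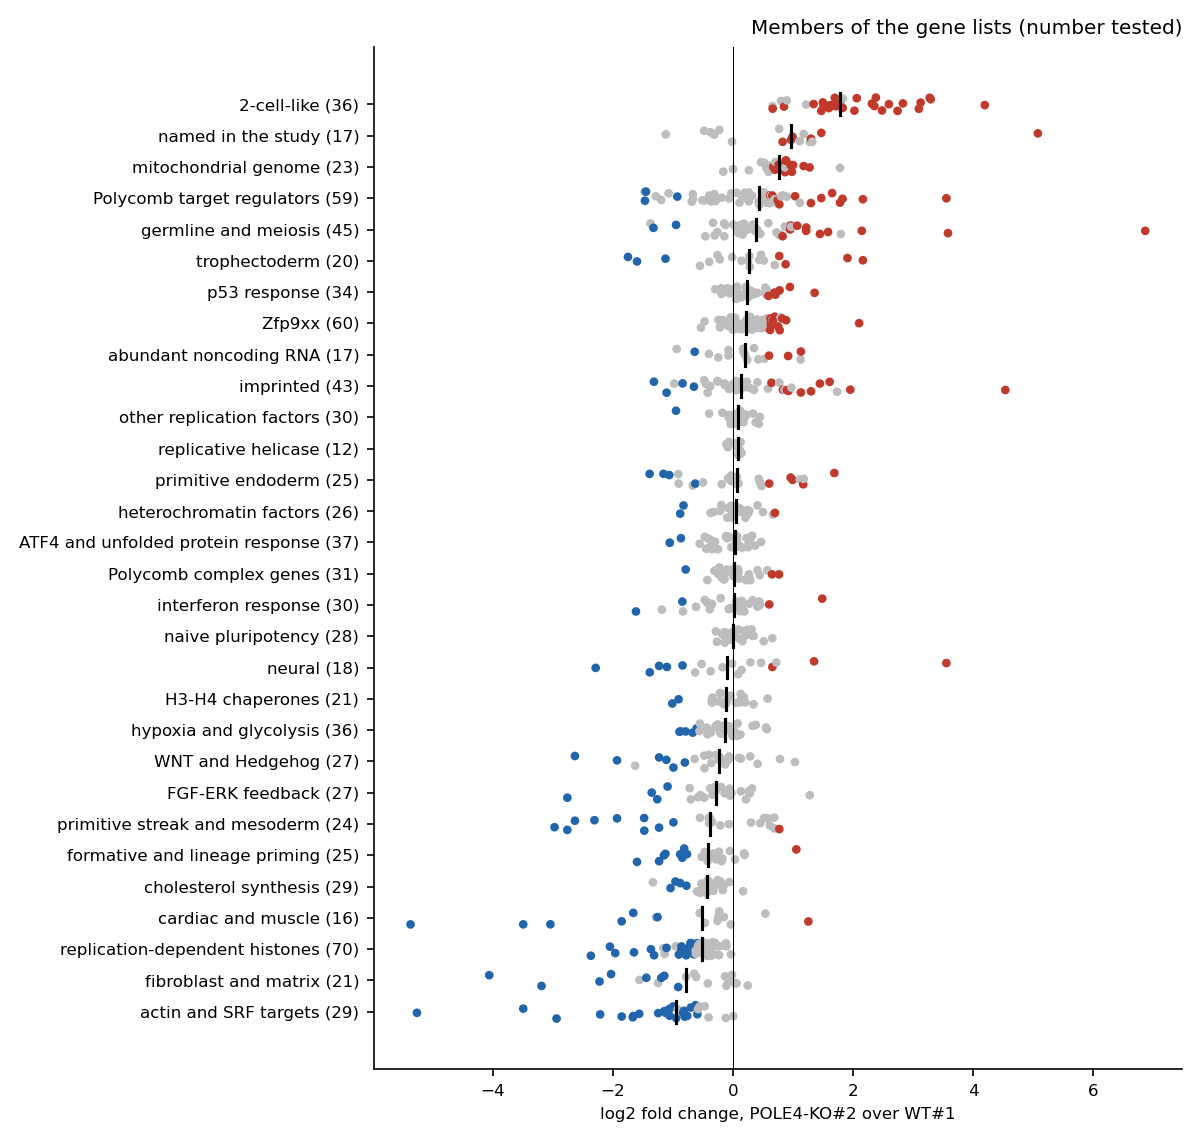
Log2 fold change of POLE4-KO#2 over WT#1 (horizontal axis) of each tested member of the gene lists, with the number tested in brackets; red points were called higher, blue points lower, gray points neither, and black bars are medians. The 2-cell-like list has the highest median (1.78) and the actin and SRF list the lowest (-0.944).

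Germline genes moved in part. Of 45 tested 11 were higher and 2 lower, with a median of 0.38, beside 5% of all genes higher and 6.35% lower. The list's median over WT#1 was -0.184 in POLE4-KO#1 and 0.514 in POLE4-KO#3. Asz1, a piRNA pathway gene, had no count in WT#1 and was at 0.484, 0.888 and 0.566 CPM in POLE4-KO#2, which is at least 14.7-fold higher against a floor of 3 counts over the group. Dazl, an RNA-binding protein of germ cells, was at 12.4, 12.5 and 15.2 CPM against 6.03, 7.06 and 7.42 CPM (0.97). Tuba3a, a testis alpha-tubulin, was at 54.5, 43.3 and 47.3 CPM against 18.8, 14.2 and 15.5 CPM (1.59), and was above the other clones by 1.86. Smc1b, the meiotic cohesin subunit, rose by 1.45 and Tex15, needed for meiotic recombination and transposon silencing, by 0.83. The synaptonemal complex gene Sycp3 (-1.32) and the meiotic cohesin Rec8 (-0.95) were lower, and Rec8 lies in the chromosome 14 stretch.

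The X-linked lymphocyte-regulated genes differed sharply between clones. Xlr3a was at 6.72, 8 and 8.53 CPM in POLE4-KO#2 against 1.52, 1.78 and 1.93 CPM in WT#1 (2.15), at 2.81 over WT#1 in POLE4-KO#3 and at -3.65 in POLE4-KO#1. Xlr4a rose by 3.58. These are multicopy genes, and the split of reads between copies is uncertain. Of the genes that the study itself names, 6 of 17 tested were higher, among them Olfr1459 (5.08), an olfactory receptor at 0.87, 0.508 and 0.696 CPM against 0.049, 0 and 0 CPM. The study chose these genes on its own samples, so they are not independent evidence of a direction.

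Among 43 imprinted genes tested, 10 were higher and 4 lower, beside 5% of all genes higher and 6.35% lower. H19, a maternally expressed noncoding RNA, had the largest change, at 90.1, 83.7 and 120 CPM against 4.51, 3.64 and 4.58 CPM (4.54, SE 0.16, adjusted p = 2.6e-11). Mir675, which lies inside H19 and shares its reads, differed by 4.24. Igf2, the paternally expressed neighbour of H19, was at 13.1, 14.9 and 18 CPM against 22.7, 26.4 and 22.9 CPM (-0.65). H19 separated the clones, with 5.23 over WT#1 in POLE4-KO#3 and -0.95 in POLE4-KO#1. In batch RNA_AUG of the clone experiment H19 ran from 0.696 to 64.6 CPM in the 6 other wild-type clones, with WT#1 at 10.9 CPM. Plagl1, a zinc finger regulator of imprinted genes, was at 17.6, 19.6 and 28.8 CPM against 4.95, 6.03 and 5.98 CPM (1.96), and Phlda2, a placental growth suppressor, at 20.1, 15.5 and 21.5 CPM against 49.4, 43.3 and 49.2 CPM (-1.31).

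Developmental regulators that Polycomb keeps silent in ESCs leaned upward, with 12 higher and 3 lower of 59 tested and a median of 0.438. Of all genes 5% were higher and 6.35% lower. Over WT#1 the list's median was -0.404 in POLE4-KO#1, with 7 higher and 12 lower. In POLE4-KO#3 it was 0.466, with 6 higher and 2 lower. Gata3, a factor of trophectoderm and other lineages, was at 10.3, 9.39 and 10.7 CPM against 2.65, 1.97 and 2.17 CPM (2.17), and was above the other clones by 1.74. Meis2, a homeobox gene, was at 4.35, 3.89 and 4.39 CPM against 1.37, 1.14 and 1.16 CPM (1.78). Nkx2-2, of ventral neural tube and pancreas, rose from 0, 0.0759 and 0.0482 CPM to 0.725, 0.55 and 0.478 CPM (3.56), and Pou3f3, a neural POU factor, by 1.83. Of 31 genes for Polycomb complexes 2 were higher, Bmi1 (0.77) and Phf19 (0.65), and 1 was lower, Yaf2 (-0.79), shares near the 5% and 6.35% of all genes.

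Markers of extraembryonic lineages split. Their counts, and those of neural genes, stand beside 5% of all genes higher and 6.35% lower. Among 25 primitive endoderm genes 5 were higher and 4 lower: Cubn, an endocytic receptor, was at 6.29, 7.49 and 7.79 CPM against 2.5, 2.16 and 2.02 CPM (1.69), and Pdgfra (0.99) and the laminin Lama1 (0.96) rose, while Serpinh1, the collagen chaperone, differed by -1.39. The defining factors of this lineage were low. Gata4 averaged 0.893 CPM in POLE4-KO#2 and 1.44 CPM in WT#1, Gata6 1.35 and 0.624 CPM, and Sox17 0.435 and 0.166 CPM. Of these, only Gata6 did not overlap between the lines. Among 20 trophectoderm genes Plac1 (1.91), Gata3, Tfap2a (0.88) and Hand1 (0.77) were higher, and the keratins Krt19 (-1.75), Krt8 and Krt18 were lower. Cdx2, a trophectoderm factor, averaged 3.15 CPM against 4.16 CPM, and Elf5 0.14 against 0.0832 CPM. Among 18 neural genes 3 were higher and 5 lower, with Syt1, the synaptic calcium sensor, at -2.29.

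Stress and housekeeping programs were read against the same background of 5% of all genes higher and 6.35% lower. Of 34 p53 response genes 6 were higher and none lower, with a median of 0.238. Trp53inp1, a p53 target, was at 320, 404 and 343 CPM against 164, 224 and 164 CPM (0.95), Ccng1 differed by 0.78, and Mdm2, the ubiquitin ligase for p53, by 0.69. Cdkn1a, the cell cycle inhibitor p21, differed by -0.09 and overlapped. The replicative helicase list had no call by edgeR among 12, none by DESeq2 and 0 at an unadjusted p under 0.05. Cholesterol synthesis had 4 lower of 29 and a median of -0.431, among them the desaturases Scd2 (-0.96) and Scd1 (-0.88). Hypoxia and glycolysis had 5 lower of 36, and the ATF4 list 2 lower of 37, Cebpb and Atf3, a share near the background. The interferon list, also near it, had 2 higher of 30, including the DNA sensor Cgas (1.49), and 2 lower, including the GTPase Gbp2 (-1.61). Of 60 zinc finger genes in the Zfp9xx series 11 were higher, with Zfp965 at 2.10.

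Replication-dependent histone genes were lower in 22 of 70 cases and higher in none, beside 6.35% of all genes lower and 5% higher. Their median was -0.519, beside medians of -0.293 in POLE4-KO#1 and -0.435 in POLE4-KO#3. Hist3h2ba, an H2B gene, was at 7.74, 6.56 and 6.7 CPM against 35.4, 29.6 and 43.2 CPM (-2.36), and Hist1h1t, the testis linker histone, differed by -1.65. Most of these transcripts lack poly(A) tails, which the libraries, depleted of ribosomal RNA, do not select against. Histone genes are near-identical copies, so the split of reads between them is uncertain. Transcripts of the mitochondrial genome were higher in 12 of 23 cases, with a median of 0.762. mt-Atp6, a subunit of ATP synthase, was at 307, 321 and 400 CPM against 139, 177 and 108 CPM (1.28). One higher gene of 6 Hox genes tested was Hoxc13 (0.90), and neither of 2 serpin A3 genes was called by edgeR, with 1 of them at an unadjusted p under 0.05 and 0 called by DESeq2. Of 17 abundant noncoding RNA entries 3 were higher, including Kcnq1ot1 (1.13) and Neat1 (0.60). Rpph1, which lies in the chromosome 14 stretch, was lower (-0.64).

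Repeats rose broadly. Of 859 repeat subfamilies tested, 472 (54.9%) were higher in POLE4-KO#2 than in WT#1 and 0 were lower by edgeR, with 5 below 0 at an unadjusted p under 0.05. DESeq2 called 459 higher and 0 lower. The median difference was 0.749, 830 subfamilies (96.6%) were above 0, and the groups did not overlap for 645 (75.1%). Most families sat close to this median: ERVK endogenous retroviruses had 141 higher of 255 and a median of 0.738, L1 LINEs 90 of 119 and 0.779, ERV1 41 of 85 and 0.711, ERVL-MaLR 57 of 84 and 0.75, and Alu SINEs 13 of 16 and 0.747. Against the other clones, 38 subfamilies (4.42%) were called, 37 higher (4.31%) and 1 lower (0.116%), with a median of 0.345. That count was 19 without POLE4-KO#2 replicate 2, 22 without replicate 3 and 15 on the repeat-only scale described below.

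Some gene types had medians near that of the repeats, and others lay between the repeats and protein-coding genes. Genes of type TEC, a GENCODE class of unspliced loci awaiting experimental evidence, had a median of 0.791 over 425 genes, and sense-intronic genes a median of 0.785 over 54. Antisense genes had a median of 0.469 over 248 and lincRNA genes 0.372 over 377, against -0.0231 over 14024 protein-coding genes. The share of unspliced RNA was not analysed here, and its part in the repeat values was not tested. When libraries were scaled on repeat counts alone, a setting chosen after seeing the data, the shift common to all repeats was removed, and 8 subfamilies were higher and 17 lower.

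The 8 that stayed higher under that scaling included the major satellite GSAT_MM, which makes up pericentromeric heterochromatin. It was at 30.1, 50.8 and 76 CPM in POLE4-KO#2 against 3.63, 4.7 and 3.57 CPM in WT#1 (3.71, SE 0.28, adjusted p = 1e-07). POLE4-KO#1 also had high values (3.19 over WT#1), POLE4-KO#3 did not (0.25), and POLE4-KO#2 exceeded the pair by 1.99. In batch RNA_AUG of the clone experiment, WT#1 was at 3.21 CPM for GSAT_MM, below all 6 other wild-type clones (5.4 to 13.9 CPM). WT#1 lay below them all for 19.9% of all repeat subfamilies tested. Genes with satellite-like sequence, chosen after their values were seen, followed: Gm10800 was at 9.14, 15.4 and 17.1 CPM against 0.294, 0.341 and 0.193 CPM (5.60), and Gm21738 (4.93) and Gm10801 (4.05) were similar. Reads of these genes and of the satellite may be the same reads.

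**Figure D5:**
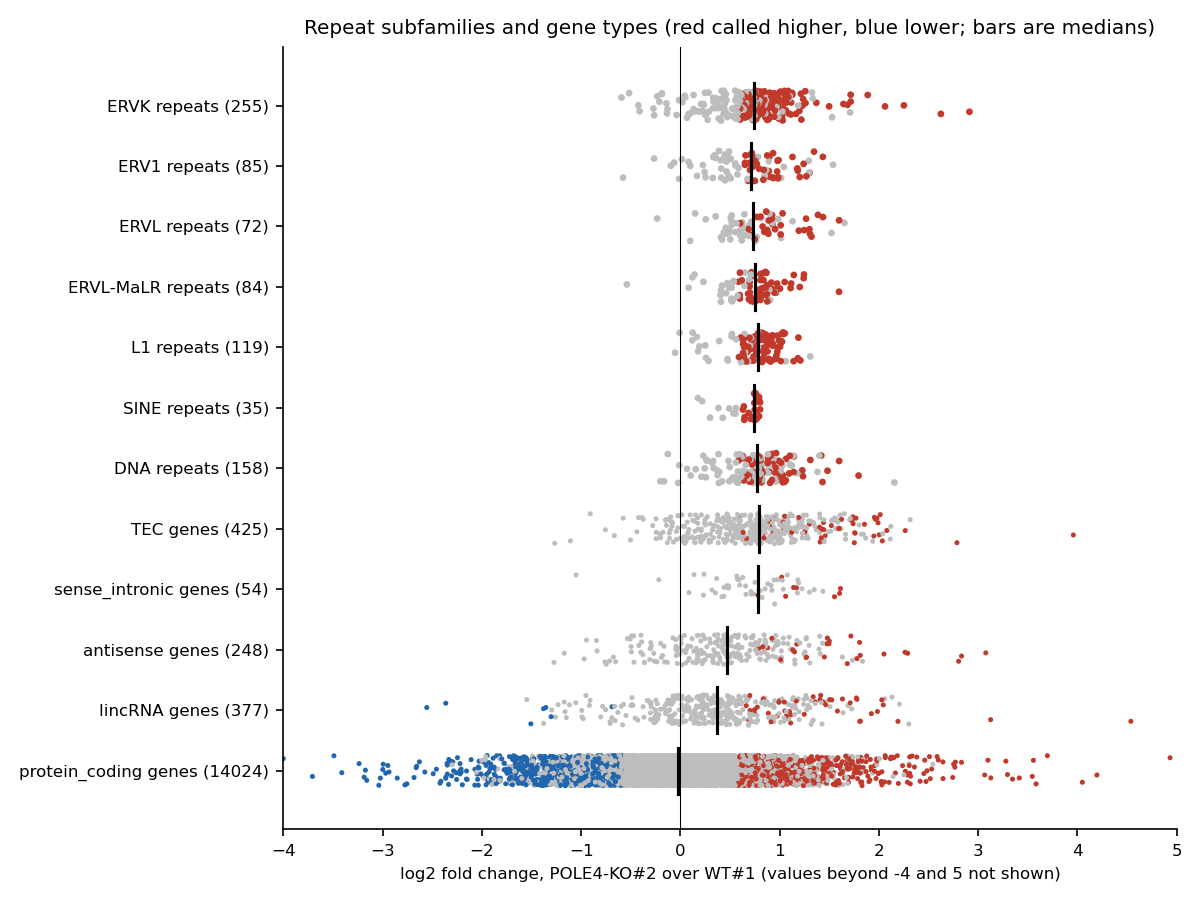
Log2 fold change of POLE4-KO#2 over WT#1 (horizontal axis, values beyond -4 and 5 not shown) of repeat subfamilies by class or family and of genes by annotated type, with the number tested in brackets; red points were called higher, blue lower, gray neither, and black bars are medians. Each repeat group has its median near 0.749, TEC and sense-intronic genes lie near the same value, and protein-coding genes lie near 0.

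The ERVK elements RLTR45-int and ERVB4_2-I_MM-int were next. RLTR45-int was at 156, 142 and 150 CPM against 26.6, 19.8 and 26.5 CPM (2.62), and ERVB4_2-I_MM-int at 27.4, 23.6 and 26.5 CPM against 4.75, 2.73 and 2.89 CPM (2.91). MERVL-int, the retrovirus expressed in 2-cell embryos, was at 676, 669 and 739 CPM against 254, 222 and 294 CPM (1.44), and its long terminal repeat MT2_Mm at 201, 188 and 204 CPM against 79.3, 72.6 and 88.3 CPM (1.30). Both followed the 2-cell-like genes across clones, with MERVL-int at -0.33 over WT#1 in POLE4-KO#1 and 1.34 in POLE4-KO#3. ETnERV3-int, an early transposon relative, was at 42.4, 48.5 and 58.2 CPM against 13.8, 14.1 and 17.6 CPM (1.72), and exceeded the other clones by 2.19. RLTR13B1 differed by 1.89 and the gammaretroviral MMERGLN-int was at 193, 201 and 222 CPM against 88.3, 87.2 and 91.8 CPM, a difference that was not called on the repeat-only scale (0.48).

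Intracisternal A particles and young L1 elements spread around the repeat median. IAPEy-int was low and rose, at 1.4, 2.03 and 1.04 CPM against 0.294, 0.379 and 0.241 CPM (2.25), and its call was lost on the repeat-only scale (1.52, adjusted p = 0.0199). L1Md_T differed by 0.91 and L1Md_A by 0.69, on either side of the repeat median, and both passed the test. For both, WT#1 lay below all 6 other wild-type clones of batch RNA_AUG. It was at 1020 CPM against 1190 to 1730 CPM for L1Md_T, and at 1220 CPM against 1540 to 2710 CPM for L1Md_A. IAPEz-int was at 424, 464 and 455 CPM against 296, 314 and 326 CPM, without overlap, and its difference of 0.52 missed the fold limit. On the repeat-only scale IAPEz-int turned to -0.20 and L1Md_A to -0.02. MTEb-int was among the subfamilies lower on that scale (-1.25), and it differed by -0.54 on the gene-based scale.

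Several further genes were far from WT#1 in POLE4-KO#2 by the fixed rule. Slc5a1, a sodium-glucose cotransporter, was at 11.8, 12.2 and 10.4 CPM against 2.45, 1.75 and 1.78 CPM (2.53), and Fbp1, a gluconeogenic phosphatase, at 2.61, 2.12 and 2.26 CPM against 0.196, 0.493 and 0.434 CPM (2.59). Bhmt, which remethylates homocysteine, was at 5.51, 1.99 and 3.61 CPM against 0.833, 0.228 and 0.289 CPM (3.07). Cacna1s, a calcium channel subunit, rose by 2.65, and Ttll6, a tubulin polyglutamylase, by 2.33. On the other side, Miip was at 0.725, 0.635 and 0.566 CPM against 7.2, 5.24 and 5.06 CPM (-3.17), and Nlrp4a, an oocyte-type NLR gene, at 0.919, 0.846 and 1.65 CPM against 6.08, 8.01 and 7.67 CPM (-2.66). Cplx2, a regulator of vesicle release (-3.41), Stmn4 (-3.00) and the phosphodiesterase Pde1a (-2.66) were also lower.

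Batch RNA_AUG of the clone experiment gives an outside reading, since it holds 5 MCM2-2A clones, which carry a mutation in the histone-binding part of the helicase subunit MCM2, and 6 wild-type clones that are not WT#1. Of the 814 genes higher in POLE4-KO#2 that could be measured there, 602 (74%) were above 0 in the MCM2-2A clones, beside 54.8% of all genes above 0 in POLE4-KO#2. Of 1040 lower genes 748 (71.9%) were below 0, beside 64.3% of all genes below 0. For repeats the share was 65.7% of the higher subfamilies and 64.4% of all subfamilies. The position of WT#1 among wild-type clones is given for the same genes. Its summed libraries lay above all 6 other wild-type clones of the batch for 540 of the 1066 lower genes (50.7%), beside 29.6% of all genes below 0, and below all of them for 198 of the 839 higher genes (23.6%), beside 24.9% of all genes above 0.

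Some of the calls above rested on the full set of libraries. With 1 of the 6 libraries left out in turn, the call was lost in 2 to 5 of the 6 fits for Pou3f3 (1.60 to 2.49), Hoxc13 (0.70 to 1.02), Porcn (-1.42 to -0.87), Pdgfra (0.79 to 1.09), Tet1 (0.57 to 0.84), Yaf2 (-0.91 to -0.59), Plac1 (1.73 to 2.07), Phf19 (0.49 to 0.76), Car12 (0.86 to 1.17), Zfp965 (1.71 to 2.39), Neat1 (0.50 to 0.66) and the repeat L1Md_A (0.57 to 0.90). Fdft1 lost it without the third POLE4-KO#2 library alone (-0.90). Each kept its direction in every such fit.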

How the data were processed

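Per the labels and the study's methods, total RNA was depleted of ribosomal RNA and made into strand-specific libraries, and reads were trimmed with Trimmomatic 0.39, aligned to mm10 with STAR 2.7.1a and counted with featureCounts. The values deposited by the authors are raw counts per gene (55335 rows) and per repeat subfamily (1146 rows), not normalized. Symbols and positions came from GENCODE vM21, which held 55154 of the gene identifiers, while the study names vM23. Column numbers tie libraries to clones through the study's table of samples. A further 7 columns of per-sample values that no label matched were not used.

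The 12 libraries of the POLE4 table were fitted together as 4 groups with edgeR 4.0.16 (glmQLFit and glmQLFTest, R 4.3.3), so that all lines share the estimate of spread. TMM factors came from gene counts alone, and features were kept by filterByExpr with a minimum count of 10. Genes and repeats were adjusted separately by Benjamini-Hochberg, and calls needed an adjusted p under 0.01 and a log2 fold change beyond 0.58. On simulated counts of 16434 genes for POLE4-KO#2 over WT#1, 82 of 100 genes changed by 1 on the log2 scale and 96 of 100 changed by 2 were called, with 3 false calls. The changed genes were drawn only from those above a minimum mean count, with the spread fitted to these data. These rates therefore do not cover genes with few counts. DESeq2 1.42.0 was an alternative. Genes named were Pole4 and its partners, up to 15 of the largest called changes in each direction with 1 CPM or more in the higher group and an assigned symbol, up to 6 called members of a list, 8 called repeats, 10 genes in each direction against the other clones and genes of the chromosome 14 stretch; some of these are not reported here. Genes given as not called, with satellite-like sequence or as cell type markers were added after their values were seen. The comparison, lists and rules were chosen with earlier results of these data known. Same-numbered libraries of the POLE4-KO clones deviated together in 9 of 9 pairs (correlation 0.155 to 0.331, none of 18 other pairs over 0.1), so a replicate block was fitted for the test against the other clones. From the clone experiment, the libraries of sequencing batch RNA_AUG in the study's table were used, summed by clone, since WT#1 was sequenced beside the other clones there.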

Additional observations from a re-analysis of the deposited data

Results flagged for a closer look

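The direct test of POLE4-KO#2 against the other POLE4-KO clones called 1000 genes and 38 repeat subfamilies that differ between clones carrying the same genotype label. Of the 525 genes lower, 157 lie in the chromosome 14 stretch. For the genes named by rule, the log2 fold change over the other clones was 4.39 for Bhmt, 4.17 for Pramef17, 2.82 for Xlr4a, 2.78 for Xlr5b, 2.60 for Trim43a, 2.59 for Txlnb, 2.57 for Xlr3a, 2.40 for H19 and 2.38 for Mir675. On the lower side it was -3.71 for Atp8a2, -3.08 for Xkr7, -2.80 for Myh9, -2.63 for Lefty2, -2.60 for Miip, -2.43 for Actc1, -2.20 for Lefty1, -2.16 for Nlrp4a, -2.10 for Nkx6-3 and -2.004 for Mmp14.

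The same contrast was reached in different ways. For H19 and Xlr3a, POLE4-KO#3 lay further above WT#1 than POLE4-KO#2 did, and POLE4-KO#1 lay below WT#1. Atp8a2 and Nkx6-3 were low in POLE4-KO#2 and high in POLE4-KO#1, which stood at 3.52 and 3.16 over WT#1 for them. Pramef17 had no count in POLE4-KO#1 and its difference from WT#1 in POLE4-KO#2 was not called (1.22). Myh9, Lefty2, Lefty1 and Txlnb were moved in POLE4-KO#2 and were not called in either other clone over WT#1.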

How the results depend on the processing

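Under the alternatives, 1905 genes and 472 repeat subfamilies (over WT#1) and 1000 and 38 (over the other clones) changed as follows. Testing against the fold limit itself gave 554, 18, 228 and 11 calls, and a log2 limit of 1 gave 966, 109, 422 and 14. An adjusted p under 0.05 without a fold limit gave 5152 genes over WT#1, and 3394 genes and 359 repeats over the other clones. Without the count filter, 60 repeats were called over the other clones. Scaling on repeats alone left 25 repeats over WT#1 (8 higher, 17 lower) and 15 over the other clones (11 higher, 4 lower), reversing IAPEz-int (-0.20) and L1Md_A (-0.017) over WT#1, and IAPEz-int (-0.078), L1Md_A (-0.048) and Tigger8 (-0.14) over the other clones. Leaving out 1 library at a time gave 1504 to 1778 genes, 335 to 467 repeats, 728 to 982 genes and 19 to 53 repeats, the lowest repeat counts over the other clones being 19 and 22 without POLE4-KO#2 replicates 2 and 3. Pole3 turned to 0.030 without WT#1 replicate 7, and Tigger8 to -0.0086 over the other clones without POLE4-KO#2 replicate 2, with 0.34 without replicate 3. With the replicate block, 1167 genes (995 of the 1000) and 50 repeats (all 38) were called over the other clones. No paired analysis was made for POLE4-KO#2 over WT#1, because the WT#1 columns carry other numbers and their match to single samples is not given. Of 3156 values of named features over WT#1, 2934 kept direction and call, 218 lost the call, 1 gained it and 3 reversed; over the other clones, of 838 values, 800 kept both, 23 lost the call (Actc1 in 8 settings, Xlr5b in 6), 11 gained it and 4 reversed. Features at under about 1 CPM rest on few counts.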
